A study of Arabidopsis thaliana with 11 samples.

Results

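The xyloglucan endotransglucosylase/hydrolase (XTH) family of *Arabidopsis thaliana* was followed across roots that differ in genotype and water supply. Its members are the 33 genes *XTH1* to *XTH33*, taken by gene identifier from the 33341 genes counted in each sample. XTH enzymes act on xyloglucan, the hemicellulose that coats and tethers cellulose in the primary wall of dicots: they cut a xyloglucan chain and either join the new end to another chain, which is the endotransglucosylase activity, or release it by hydrolysis. Through this they take part in wall loosening during cell expansion and in wall reinforcement when growth stops, and in roots they are best known from the elongation zone, root hairs and vascular tissue. Several members are classical targets of touch, auxin and brassinosteroids. The family is divided by sequence into subgroup I (*XTH1* to *XTH11*), subgroup II (*XTH12* to *XTH26*) and subgroup III (*XTH27* to *XTH33*, which includes the 2 members, *XTH31* and *XTH32*, placed with the hydrolase type).

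Roots were compared in 4 groups. All plants of both *BRL3ox* groups carry a BRL3-GFP fusion under the 35S promoter. This promoter is active in most cell types. BRL3, a brassinosteroid receptor, is enriched in vascular tissue in WT plants. The authors report that the receptor is also enriched in root vascular tissue of *BRL3ox*. WT plants were Columbia-0. The groups were *BRL3ox* drought (3 samples), *BRL3ox* control (2 samples, replicates 1 and 3), WT drought (3 samples) and WT control (3 samples). Seedlings of both genotypes spent 7 days on agar and 16 days in soil, after which drought plants went without water for 5 days while control plants were watered. Mature roots were detached and sequenced as polyA RNA. Replicate 2 of *BRL3ox* control was not analysed here, *BRL3ox* is a single line, and because the sources do not say whether samples of a group came from separate plants, p-values measure only the spread between these samples.

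Counts on genes were 21865710 to 22817390 in *BRL3ox* drought, 18673457 and 21819318 in *BRL3ox* control, 20416676 to 20834773 in WT drought and 18610736 to 20883150 in WT control. Values are given as normalized counts (CPM, counts divided by the TMM-scaled library size). *BRL3* itself reached 2854 ± 373 CPM in *BRL3ox* drought (SD, n = 3) and 974 and 1652 CPM in *BRL3ox* control, against 61.4 ± 14.4 CPM in WT drought and 62.0 ± 2.80 CPM in WT control (SD, n = 3 each). Its level thus also differed between the *BRL3ox* conditions, with a log2 fold change of 1.12 in drought (SE 0.25, edgeR adjusted p = 0.0106). In WT this value was -0.01 (SE 0.22, edgeR adjusted p = 0.973). The part of this difference in the XTH values was not tested. Levels of 6 root genes (*SHR*, *SCR*, *CASP1*, *ESB1*, *PHO1* and *WER*) were read beside the root label. All 6 were counted in all 11 samples, with *ESB1* at 0.315 to 0.717 CPM. The 10 photosynthesis genes named next were also counted in all 11 samples, so this does not check the label. A list of 10 photosynthesis genes was used as a sign of shoot tissue. It summed to 74.9 to 98.0 CPM in *BRL3ox* drought and 17.4 and 138 CPM in *BRL3ox* control. In WT it summed to 32.7 to 189.7 CPM in drought and 17.2 to 386 CPM in control. None of the 10 was called in any comparison. All 10 had a fitted level below WT control in *BRL3ox* control (median log2 fold change -1.06, SE 0.40 to 1.63). For all 10, the log2 fold change in drought was higher in *BRL3ox* than in WT, by a median of 0.75 (SE 0.52 to 2.16). Both signs occurred in the other comparisons. With such SEs the lack of calls does not show equal levels. The part of shoot tissue in the XTH values was not tested. Roots were measured in bulk, so fewer cells of a type and less RNA per cell cannot be told apart.

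Subgroup II carried most of the family's transcript in roots, led by *XTH22* (AT5G57560), long known as *TCH4*, a gene induced by touch and by brassinosteroids. The subgroup's share of the family's summed CPM per kb of exon was 75.7 to 80.7% over the *BRL3ox* drought samples and 58 to 63.9% over the *BRL3ox* control samples, against 81.3 to 86.4% over the WT drought samples and 62.2 to 85.4% over the WT control samples. Per kilobase of exon, *XTH22* ranked first of the 33 genes in each group, with a mean level of 1293 CPM per kb in *BRL3ox* drought, 407 in *BRL3ox* control, 1488 in WT drought and 808 in WT control. Next came *XTH23* (AT4G25810), also known as *XTR6*, and *XTH18* (AT4G30280), a gene of the root elongation zone, in both drought groups. Mean levels were 359 and 296 CPM per kb for *XTH23* and *XTH18* in *BRL3ox* drought, and 533 and 506 CPM per kb in WT drought. In *BRL3ox* control the order below *XTH22* was *XTH18* (127 CPM per kb), *XTH9* (124) and *XTH7* (119.8), whose samples overlapped, with *XTH23* lower at 78.6. In WT control it was *XTH18* (285) and *XTH23* (258), which also overlapped, as they did in both drought groups. Among the members that are not in subgroup II, *XTH9*, *XTH7*, *XTH4*, *XTH8* and *XTH31* were the most abundant per kilobase, with group means between 52.7 and 174 CPM per kb.

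**Figure D1:**
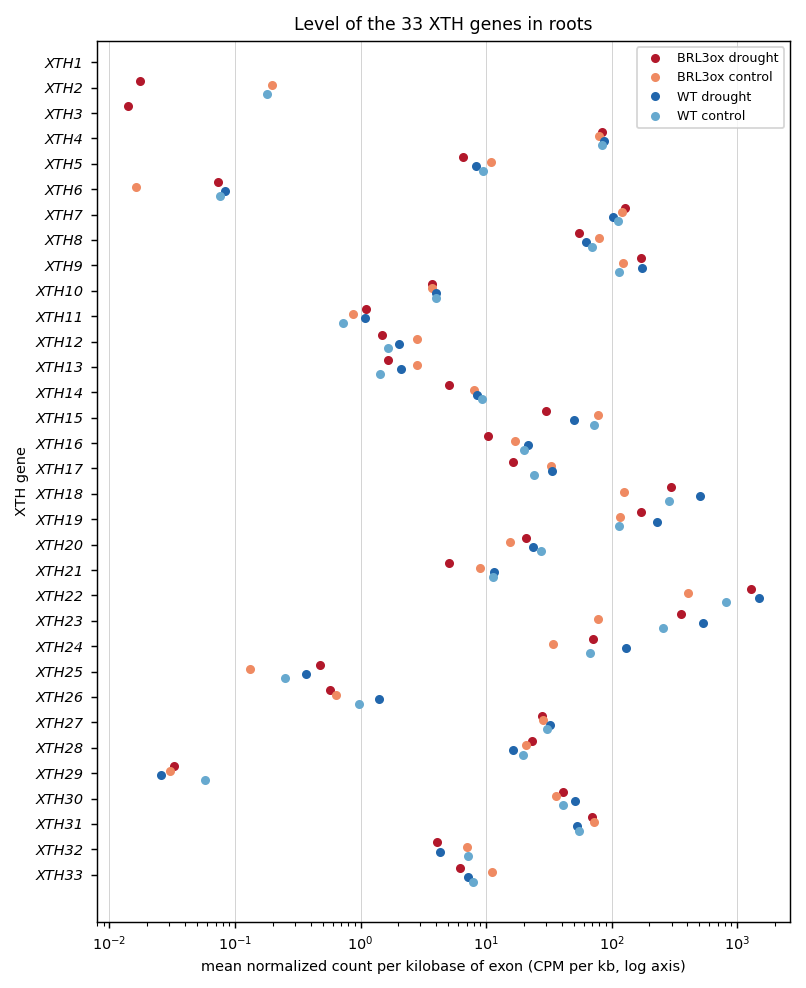
Mean level of each of the 33 XTH genes in CPM per kilobase of exon on a log axis, 1 point for each group; a group whose samples all had 0 counts has no point. *XTH22* lies furthest right in each group, from 407 CPM per kb in *BRL3ox* control to 1488 in WT drought, and *XTH1*, *XTH2*, *XTH3*, *XTH6* and *XTH29* lie at the left edge or off it.

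Of the 33 members, 28 passed the filter on low counts and were tested: 7 of 11 in subgroup I, 15 of 15 in subgroup II and 6 of 7 in subgroup III. *XTH1* had no count in any sample. *XTH3* had 1 count over all 11 samples, *XTH29* 12, *XTH2* 18 and *XTH6* 22. These 5 genes were not detectable above a few counts at this depth and enter no comparison. The family summed to 4417, 4134 and 4195 CPM in *BRL3ox* drought and 2118 and 2212 CPM in *BRL3ox* control, against 4682, 5814 and 5296 CPM in WT drought and 3386, 2640 and 3700 CPM in WT control. *BRL3ox* control thus lay below each other sample, and both drought groups lay above the control samples of both genotypes. Per kilobase of exon, *XTH22* alone made up 44.1, 45 and 44.4% of the family's summed level in *BRL3ox* drought, 24.5 and 28.8% in *BRL3ox* control, 37.5, 41.1 and 43.5% in WT drought and 36.2, 28.6 and 40.5% in WT control.

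Several of the members that moved lie next to each other in the genome (TAIR10.1). On chromosome 4, *XTH24*, *XTH18* and *XTH19* follow each other on the minus strand between 14819192 and 14830224, with 5161 and 1500 bases between them, and *XTH23* precedes *XTH14* by 363 bases on the plus strand. On chromosome 5, *XTH12*, *XTH13*, *XTH25* and *XTH22* lie on the minus strand between 23300321 and 23308680. Gene structure follows the subgroups: 13 of 15 members of subgroup II have 3 annotated exons, *XTH22* has 2 and *XTH26* has 4, whereas 10 of 11 members of subgroup I and 7 of 7 of subgroup III have 4. Neighbouring copies are close enough in sequence to matter for 45-base reads. *XTH18* and *XTH19* share a 68-base coding run, shown here because both genes were called and because it is the longest such run between members:
XTH18 and XTH19: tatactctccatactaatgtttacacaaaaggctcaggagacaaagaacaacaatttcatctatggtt
Still, 2.21% of the 45-base stretches of *XTH18* and 2.4% of those of *XTH19* occur in another gene, and the share was at most 0.833% for the other called members except *XTH15*. For *XTH15*, 29.1% of the stretches also belong to AT4G14120, which overlaps it by 382 bases on the opposite strand. AT4G14120 itself had 2.05 to 3.54 CPM over all samples and was called in no comparison, and as the strand option of the counting is not given in the sources used here, reads of the overlap cannot be assigned with certainty.

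Promoters were read as the 250 bases before the annotated gene start (TAIR10.1, coding strand, 5′ to 3′). *XTH17* and *XTH18*, a close pair of root-expressed genes on different chromosomes, are shown because their drought responses in *BRL3ox* roots had opposite signs although the last 73 bases of their promoters are identical. The window of *XTH17* is chr1:24256804-24257053 on the plus strand and that of *XTH18* is chr4:14827212-14827461 on the minus strand. Capitals mark the shared run from -73 to -1, which goes on for 7 bases past the gene start:
XTH17: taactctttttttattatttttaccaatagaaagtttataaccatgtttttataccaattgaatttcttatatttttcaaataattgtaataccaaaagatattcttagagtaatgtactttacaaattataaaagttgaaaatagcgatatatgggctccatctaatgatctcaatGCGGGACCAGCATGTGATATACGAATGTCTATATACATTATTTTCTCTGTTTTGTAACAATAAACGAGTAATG
XTH18: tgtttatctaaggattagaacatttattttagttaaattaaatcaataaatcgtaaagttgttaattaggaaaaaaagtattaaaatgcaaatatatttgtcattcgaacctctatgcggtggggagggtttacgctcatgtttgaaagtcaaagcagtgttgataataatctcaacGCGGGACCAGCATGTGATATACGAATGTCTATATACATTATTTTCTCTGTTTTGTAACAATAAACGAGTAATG
The next longest run shared by any other of the 528 pairs of members is 14 bases. The windows of *XTH22* (chr5:23308681-23308930, minus strand) and *XTH23* (chr4:13128144-13128393, plus strand) are shown as those of the most abundant member and of the member with the largest fitted increase. Capitals mark the matches found among 7 motifs:
XTH22: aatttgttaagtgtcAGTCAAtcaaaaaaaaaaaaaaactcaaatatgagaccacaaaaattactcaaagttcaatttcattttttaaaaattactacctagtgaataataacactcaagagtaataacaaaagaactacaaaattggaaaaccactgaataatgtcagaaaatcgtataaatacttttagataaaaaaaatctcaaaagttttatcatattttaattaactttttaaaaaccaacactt
XTH23: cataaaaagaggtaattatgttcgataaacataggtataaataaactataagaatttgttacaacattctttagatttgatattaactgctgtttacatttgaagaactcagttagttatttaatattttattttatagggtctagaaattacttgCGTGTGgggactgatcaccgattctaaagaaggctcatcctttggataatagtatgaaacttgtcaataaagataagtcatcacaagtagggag
The motifs were searched on both strands: the G-box CACGTG, the brassinosteroid response element as CGTGTG or CGTGCG, the abscisic acid response element core ACGTG (which is part of the G-box), the rapid stress response element CGCGTT and the W-box as TTGACC or TTGACT. The capitals in *XTH22* are TTGACT on the other strand and those in *XTH23* are CGTGTG. That motif was found in 4 of the 33 members (*XTH2*, *XTH8*, *XTH23* and *XTH25*) and in 5.37% of 27443 promoters of coding genes of the same length, and CACGTG and CGTGCG in 0 of 33 against 6.49% and 1.57%. ACGTG was found in 5 members against 22.9% of promoters, CGCGTT in 3 (*XTH13*, *XTH18* and *XTH20*) against 2.59%, TTGACC in 4 against 12.2% and TTGACT in 2 (*XTH18* and *XTH22*) against 19.1%. These matches describe the letters in the window and nothing more.

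The drought response of *BRL3ox* roots (*BRL3ox* drought against *BRL3ox* control) split the family: of 27 tested members, *XTH25* left aside, 4 rose and 5 fell. The 4 that rose, *XTH18*, *XTH22*, *XTH23* and *XTH24*, all belong to subgroup II. *XTH25* also met the thresholds, as a higher gene, but it passed the filter on low counts only through 2 samples of *BRL3ox* drought, the group in which it was high, so its values are given as a description and it is not counted here. Those that fell were *XTH13*, *XTH15* and *XTH17* of subgroup II, *XTH5* of subgroup I and *XTH33* of subgroup III. A gene was called when its Benjamini-Hochberg adjusted p from edgeR's quasi-likelihood test over 20718 genes was under 0.05 and its fold change over 1.5. Of all genes tested, 16.1% were called in this comparison, 9.14% higher and 6.98% lower. The median log2 fold change was -0.03 over these 27 members and -0.02 over all genes.

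*XTH23* had the largest fitted increase of the members. It had 531, 434 and 514 CPM in *BRL3ox* drought, against 106 and 109 CPM in *BRL3ox* control. The 3 drought samples were far above both controls, and the log2 fold change was 2.19 (SE 0.30, edgeR adjusted p = 0.00125). *XTH22* had 2119.9, 2019 and 2030.1 CPM in *BRL3ox* drought, against 582 and 712 CPM in *BRL3ox* control. The 3 drought samples lay close together and far above both controls, with a log2 fold change of 1.67 (SE 0.26, edgeR adjusted p = 0.0021). *XTH18* had 397, 318 and 405 CPM in *BRL3ox* drought, against 143 and 177 CPM in *BRL3ox* control. Its groups were apart as well, and it rose by a log2 fold change of 1.22 (SE 0.28, edgeR adjusted p = 0.0126). *XTH24* (AT4G30270), first described as *MERI5* from meristem tissue, had 81.6, 91.0 and 84.2 CPM in *BRL3ox* drought, against 36.7 and 45.2 CPM in *BRL3ox* control. All drought samples exceeded both controls, and the log2 fold change was 1.06 (SE 0.19, edgeR adjusted p = 0.00344). *XTH25* (AT5G57550) was scarce: it had 0.676, 0.600 and 0.421 CPM in *BRL3ox* drought, against 0.144 and 0.169 CPM in *BRL3ox* control, from 86 counts over all 11 samples and at most 15 in 1 of them. The counts were 15, 13 and 9 in *BRL3ox* drought and 3 and 4 in *BRL3ox* control, and no sample outside *BRL3ox* drought had more than 9. The fitted log2 fold change was 1.81 (SE 0.57), and no test is read from it.

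**Figure D2:**
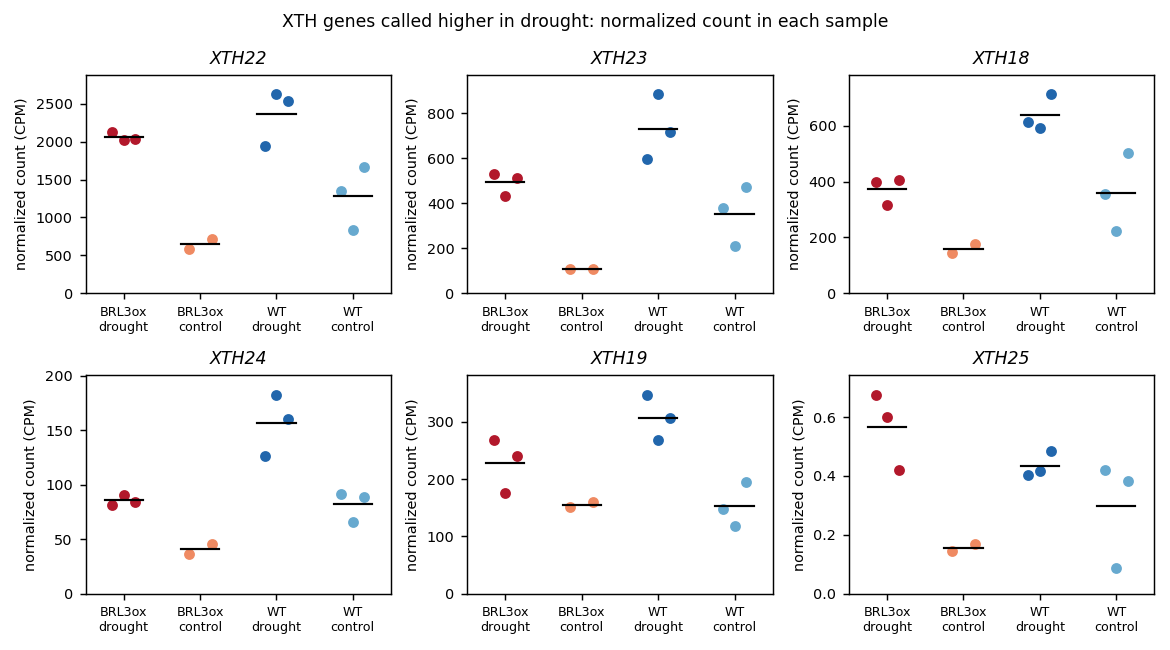
Normalized count (CPM) of the 5 XTH genes called higher in drought in at least 1 genotype and of *XTH25*, 1 point for each sample and a bar at the group mean, each panel from 0. *XTH22*, *XTH23*, *XTH18* and *XTH24* are lowest in the 2 *BRL3ox* control samples, and *XTH23* stands at 434 to 531 CPM in *BRL3ox* drought against 106 and 109 CPM in *BRL3ox* control.

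Of the members that fell in *BRL3ox* roots, *XTH15* (AT4G14130), also known as *XTR7*, changed most. It had 30.1, 47.7 and 31.0 CPM in *BRL3ox* drought, against 89.1 and 100.3 CPM in *BRL3ox* control. No drought sample came near a control sample, and the log2 fold change was -1.38 (SE 0.23, edgeR adjusted p = 0.00256). *XTH17* (AT1G65310) had 23.8, 16.0 and 21 CPM in *BRL3ox* drought, against 40.6 and 40.8 CPM in *BRL3ox* control. Both controls exceeded all drought samples, with a log2 fold change of -1.01 (SE 0.27, edgeR adjusted p = 0.0244). *XTH33* (AT1G10550), whose product has been described at the cell surface, had 7.75, 8.03 and 6.78 CPM in *BRL3ox* drought, against 14.5 and 12.3 CPM in *BRL3ox* control. These groups did not overlap, and the log2 fold change was -0.83 (SE 0.22, edgeR adjusted p = 0.0223). *XTH13* (AT5G57540), a member known from root hairs, had 1.40, 2.03 and 2.1 CPM in *BRL3ox* drought, against 3.11 and 3.16 CPM in *BRL3ox* control. It was low in all samples but apart between the groups, at a log2 fold change of -0.77 (SE 0.22, edgeR adjusted p = 0.0316). *XTH5* (AT5G13870) had 12.7, 11.6 and 13.2 CPM in *BRL3ox* drought, against 22.9 and 19.3 CPM in *BRL3ox* control. Its drought samples were all below the controls, with a log2 fold change of -0.76 (SE 0.21, edgeR adjusted p = 0.0282).

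Of the 18 tested members that did not meet the thresholds, 9 had drought samples that did not overlap the 2 controls. This was near the share over all genes, of which 56.5% did not overlap between these groups, or 48.2% of those not called. *XTH8* came closest at a log2 fold change of -0.53 (SE 0.15, edgeR adjusted p = 0.0313), which is under the fold threshold. The calls changed when single samples were left out. Without *BRL3ox* drought replicate 1, 6 members were called (*XTH15*, *XTH17*, *XTH18*, *XTH22*, *XTH23* and *XTH24*). Leaving out a *BRL3ox* control sample left only 1 control, and calls were lost there as well. The log2 fold changes of the called members kept their sign in each of these fits. The share of all genes called in them is not given here. In the same comparison the 12 touch and wound genes, a list of mechanically induced genes such as *TCH2*, *TCH3*, *CML38* and *WRKY40*, had 4 called higher and 1 lower with a median log2 fold change of 0.64, and summed to 4869 to 5682 CPM in *BRL3ox* drought and 2932 and 3607 CPM in *BRL3ox* control. No gene of that list was at 0 in any sample. Of the 6 root genes, 5 were called lower (median log2 fold change -0.86), and of 8 root hair genes 1 was called higher and 1 lower (median -0.31). The part of handling or of cell makeup in the XTH changes was not tested.

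In WT roots the drought response (WT drought against WT control) gave 5 members that rose and 0 that fell among the 28 tested. The 5 were *XTH18*, *XTH19*, *XTH22*, *XTH23* and *XTH24*, all of subgroup II, whose 15 members had a median log2 fold change of 0.56 against -0.02 over all genes. Of all genes tested, 12.4% were called, 7.54% higher and 4.84% lower. The median over all 28 members was 0.07. For the 0 called lower, 8 members in either direction had an unadjusted p under 0.05 by edgeR, and DESeq2 called the same 5 genes higher and 0 lower.

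*XTH22* had 1946, 2621 and 2529 CPM in WT drought, against 1354, 840.1 and 1659 CPM in WT control. All drought samples exceeded all controls, though the controls differed almost as much among themselves, and the log2 fold change was 0.88 (SE 0.22, edgeR adjusted p = 0.0213). *XTH23* had 597, 883 and 715 CPM in WT drought, against 380.4, 211 and 471 CPM in WT control. Its groups were apart, with a log2 fold change of 1.05 (SE 0.25, edgeR adjusted p = 0.0172). *XTH18* had 614, 593 and 712 CPM in WT drought, against 355, 221 and 503 CPM in WT control. WT control replicate 2 was the lowest sample for this gene as for the 2 before it, and the log2 fold change was 0.83 (SE 0.24, edgeR adjusted p = 0.039). *XTH24* had 127, 183 and 160.3 CPM in WT drought, against 91.7, 65.4 and 88.8 CPM in WT control. Again all drought samples were above all controls, at a log2 fold change of 0.93 (SE 0.16, edgeR adjusted p = 0.00392). *XTH19* (AT4G30290), a gene of the dividing and elongating root tip, had 347, 268 and 306 CPM in WT drought, against 148, 118 and 195 CPM in WT control. It rose by a log2 fold change of 0.998 (SE 0.20, edgeR adjusted p = 0.00736) with no overlap between the groups. In *BRL3ox* roots *XTH19* had 268, 176 and 241 CPM in drought and 151 and 160.0 CPM in control, a log2 fold change of 0.55 (SE 0.22, edgeR adjusted p = 0.101), and the difference between the genotypes in this response was -0.44 (SE 0.29, unadjusted p = 0.158).

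*XTH19* and *XTH24* stayed called without any single sample. Without WT drought replicate 2 they were the only 2 members called, and without WT drought replicate 3 or WT control replicate 1 there were 3, those and *XTH23*. Of the touch and wound genes 0 were called higher and 2 lower (median log2 fold change 0.33), their summed level being 4688 to 6779 CPM in WT drought and 3474 to 6296 CPM in WT control, and 2 of 6 root genes were called lower (median -0.43). With library totals and no TMM scaling, the median of all genes shifted to -0.19 in the *BRL3ox* response and -0.17 in the WT response. The members called higher were then the same 5 in WT, and the same 4 in *BRL3ox*, and those called lower were 8 in *BRL3ox* (adding *XTH8*, *XTH12* and *XTH16*) and 1 in WT (*XTH15*). Of all 20718 genes, 2405 were then called lower in the *BRL3ox* response and 1729 in the WT response, against 1447 and 1002 with TMM. Called higher were 1470 and 1191, against 1893 and 1563 with TMM.

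**Figure D3:**
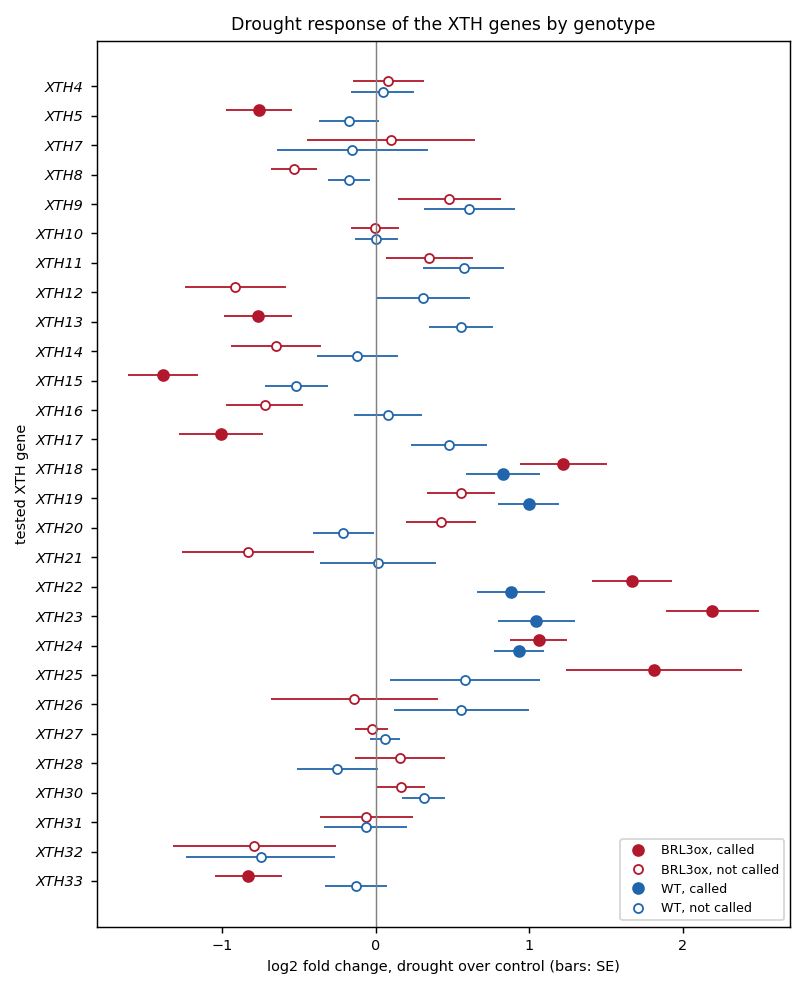
Log2 fold change of the 28 tested XTH genes in drought against control, with SE bars, for *BRL3ox* roots and for WT roots, filled where the thresholds were met (for *XTH25*, a description only). Filled points lie on both sides of 0 in *BRL3ox*, from -1.38 for *XTH15* to 2.19 for *XTH23*, and only to the right of 0 in WT, from 0.83 to 1.05.

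The interaction asked whether drought moved a gene differently in *BRL3ox* than in WT roots, and was called at an unadjusted p under 0.0025. Of the 28 members 2 passed, *XTH17* and *XTH13*, both with a negative value, that is with a lower response in *BRL3ox*. Over all genes tested, 0.951% passed this threshold, 0.603% with a negative and 0.348% with a positive value. None of the 28 passed an FDR of 0.05 by edgeR, which 0.00965% of genes did, and 8 members had an unadjusted p under 0.05. DESeq2 gave the same 2 members at p under 0.0025. *XTH25* is 1 of the 28 and was not among those that passed.

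*XTH17* had 23.8, 16.0 and 21 CPM in *BRL3ox* drought and 40.6 and 40.8 CPM in *BRL3ox* control, whereas it had 58.8, 36.3 and 30.4 CPM in WT drought and 30.6, 23.0 and 36.4 CPM in WT control. It fell without overlap in *BRL3ox*. In WT the groups overlapped, with a log2 fold change of 0.48 (SE 0.25, edgeR adjusted p = 0.199). The difference between the responses was -1.49 (SE 0.37, unadjusted p = 0.00211, edgeR adjusted p = 0.252). *XTH13* had 1.40, 2.03 and 2.1 CPM in *BRL3ox* drought and 3.11 and 3.16 CPM in *BRL3ox* control, whereas it had 2.42, 2.08 and 2.54 CPM in WT drought and 1.52, 1.46 and 1.80 CPM in WT control. Its WT drought samples lay above the WT controls, at a log2 fold change of 0.56 (SE 0.21, edgeR adjusted p = 0.0881), opposite to *BRL3ox*, and the difference was -1.33 (SE 0.30, unadjusted p = 0.00127, edgeR adjusted p = 0.221).

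The closely related *XTH18*, which shares the 73-base promoter run with *XTH17*, had an interaction value of 0.39 (SE 0.37, unadjusted p = 0.307), and it was called higher in drought in both genotypes. The other members called higher in drought in both genotypes were *XTH22*, *XTH23* and *XTH24*. Their edgeR interaction values were 0.79 (SE 0.33, unadjusted p = 0.0382), 1.15 (SE 0.38, unadjusted p = 0.0118) and 0.13 (SE 0.24, unadjusted p = 0.603). None of these passed the threshold, so a stronger rise in *BRL3ox* was not shown for them. The 4 other members with an unadjusted p under 0.05 had negative values, *XTH12* at -1.22 (SE 0.45, unadjusted p = 0.0212), *XTH15* at -0.87 (SE 0.31, unadjusted p = 0.0166), *XTH16* at -0.80 (SE 0.33, unadjusted p = 0.036) and *XTH33* at -0.70 (SE 0.30, unadjusted p = 0.0392). Without WT drought replicate 1, WT control replicate 1 or either *BRL3ox* control sample no member passed, and without WT control replicate 2 the 2 members that passed were *XTH22* and *XTH23*, with positive values.

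**Figure D4:**
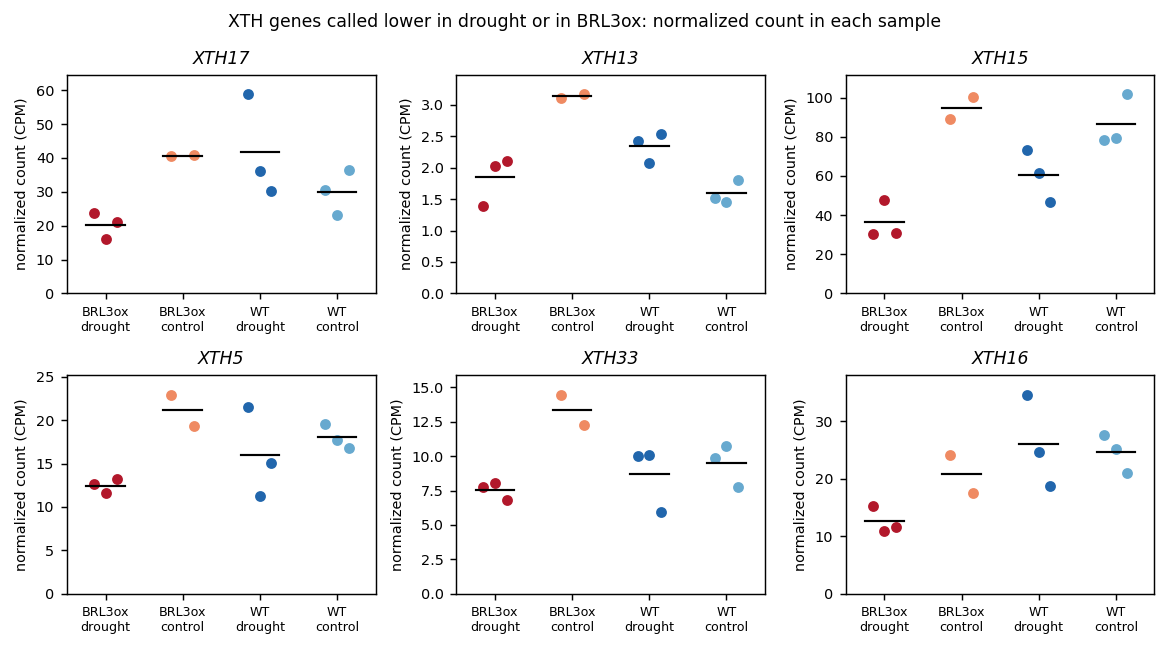
Normalized count (CPM) of 6 XTH genes called lower in drought or lower in *BRL3ox*, 1 point for each sample and a bar at the group mean, each panel from 0. For *XTH17* and *XTH13* the *BRL3ox* drought samples lie below the *BRL3ox* controls (40.6 and 40.8 CPM, and 3.11 and 3.16 CPM), while the WT drought means lie above the WT control means.

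Under drought (*BRL3ox* drought against WT drought), members of subgroup II tended to lower values in *BRL3ox* roots, though few passed the test. Of the 28 tested members, 23 had a log2 fold change below 0, with a median of -0.27 against -0.000419 over all genes, and in subgroup II this was 14 of 15 with a median of -0.74. These counts include *XTH25*, which passed the filter only through *BRL3ox* drought samples and was the only subgroup II member above 0 (0.38). Without it the median over 27 members was -0.32. Called lower were 3 members, *XTH16*, *XTH17* and *XTH24*, and none was called higher. Of all genes tested, 3.51% were called, 2.12% lower and 1.39% higher. With no TMM scaling 21 of 28 members and 14 of 15 in subgroup II lay below 0.

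*XTH24* had 81.6, 91.0 and 84.2 CPM in *BRL3ox* drought, against 127, 183 and 160.3 CPM in WT drought. The *BRL3ox* samples were tightly grouped below all WT samples, and the log2 fold change was -0.87 (SE 0.16, edgeR adjusted p = 0.0192). *XTH16* (AT3G23730) had 15.2, 10.8 and 11.6 CPM in *BRL3ox* drought, against 34.6, 24.7 and 18.8 CPM in WT drought. The groups did not overlap although WT spread widely, with a log2 fold change of -1.05 (SE 0.23, edgeR adjusted p = 0.0317). *XTH17* was at most 23.8 CPM in *BRL3ox* drought and at least 30.4 CPM in WT drought, a log2 fold change of -1.04 (SE 0.25, edgeR adjusted p = 0.0427). *XTH18* was also apart, with 397, 318 and 405 CPM in *BRL3ox* drought against 614, 593 and 712 CPM in WT drought, but did not pass at a log2 fold change of -0.78 (SE 0.24, edgeR adjusted p = 0.0915). *XTH22*, the most abundant member, had 2119.9, 2019 and 2030.1 CPM in *BRL3ox* drought against 1946, 2621 and 2529 CPM in WT drought. Its groups overlapped, and the log2 fold change of -0.20 (SE 0.22, edgeR adjusted p = 0.622) did not pass.

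These calls changed when single samples were left out, and the share of all genes called in those fits is not given here. The log2 fold changes kept their sign, at -1.24 to -0.79 for *XTH16*, -1.23 to -0.717 for *XTH17* and -1.0 to -0.745 for *XTH24*. The call of *XTH17* was also lost without WT control replicate 1, which is in neither compared group. No member was called without WT drought replicate 2 or *BRL3ox* drought replicate 2, and 1 was without WT drought replicate 1 (*XTH24*) or *BRL3ox* drought replicate 1 (*XTH16*). DESeq2 called 6, adding *XTH15*, *XTH18* and *XTH21*, and the share of all genes it called is not given here. The 8 root hair genes, of which *EXPA7*, *COBL9* and *RHD2* are examples, were chosen because some subgroup II members are expressed in root hairs. Of the 8 genes, 7 lay below 0 in this comparison, none called, with a median log2 fold change of -0.63, and the list summed to 132 to 174 CPM in *BRL3ox* drought and 173 to 196 CPM in WT drought. *CASP1* of the root list was called lower at -0.91, and of the touch and wound genes *ERF104* was called higher at 0.79 with a list median of -0.08. Whether cell makeup has a part in the XTH values was not tested.

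In watered roots (*BRL3ox* control against WT control, the basal comparison), 2 of 28 members were called, *XTH23* and *XTH24*, both lower in *BRL3ox*, and none was called higher. Of all genes tested, 0.772% were called, 0.555% lower and 0.217% higher. *XTH23* had 106 and 109 CPM in *BRL3ox* control, against 380.4, 211 and 471 CPM in WT control. Its 2 *BRL3ox* samples nearly coincided below all WT samples, with a log2 fold change of -1.72 (SE 0.30, edgeR adjusted p = 0.0402). *XTH24* had 36.7 and 45.2 CPM in *BRL3ox* control, against 91.7, 65.4 and 88.8 CPM in WT control. Both *BRL3ox* samples were again below all WT samples, at a log2 fold change of -0.999 (SE 0.18, edgeR adjusted p = 0.0449). *XTH24* was the only member called lower in *BRL3ox* in both conditions.

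The median log2 fold change of the 28 members was -0.06, against -0.00433 over all genes, with 15 below 0. A further 7 of 26 members had *BRL3ox* and WT control samples that did not overlap but were not called, against 36.5% of the genes not called (37.0% of all genes tested). Among these were *XTH18* at -1.17 (SE 0.28, edgeR adjusted p = 0.0773), *XTH22* at -0.99 (SE 0.25, edgeR adjusted p = 0.0904) and *XTH20* at -0.82 (SE 0.23, edgeR adjusted p = 0.111) on the lower side, and *XTH13* at 0.98 (SE 0.22, edgeR adjusted p = 0.0683) on the higher side. For *XTH22* the samples had 582 and 712 CPM in *BRL3ox* control, against 1354, 840.1 and 1659 CPM in WT control. DESeq2 called these 4 genes and the 2 above, and the share of all genes it called is not given here. With no TMM scaling *XTH13* was called higher beside the 2 lower. Of all genes, 127 were then called higher and 210 lower, against 45 and 115 with TMM. The 2 calls were both kept only when WT drought replicate 1 or WT control replicate 2 was left out. Without any other single sample neither was called, with adjusted p by edgeR of up to 0.332 for *XTH23* and 0.357 for *XTH24*. Of the 12 touch and wound genes, 9 lay below 0, with a median log2 fold change of -0.75, and 1, the calmodulin-like gene *CML39*, was called lower at -1.62. Their sums were 2932 and 3607 CPM in *BRL3ox* control and 4446, 3474 and 6296 CPM in WT control, so the ranges overlapped, and their part in the XTH values was not tested.

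The genotype and drought comparisons share samples. The *BRL3ox* control samples enter both the basal comparison and the *BRL3ox* drought response with opposite sign, so low levels of *XTH23* and *XTH24* in these 2 samples lower the one value and raise the other. The same holds for the WT control samples in the basal comparison and the WT response. The values of the 2 genes in the 4 comparisons are therefore not independent of each other.

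**Figure D5:**
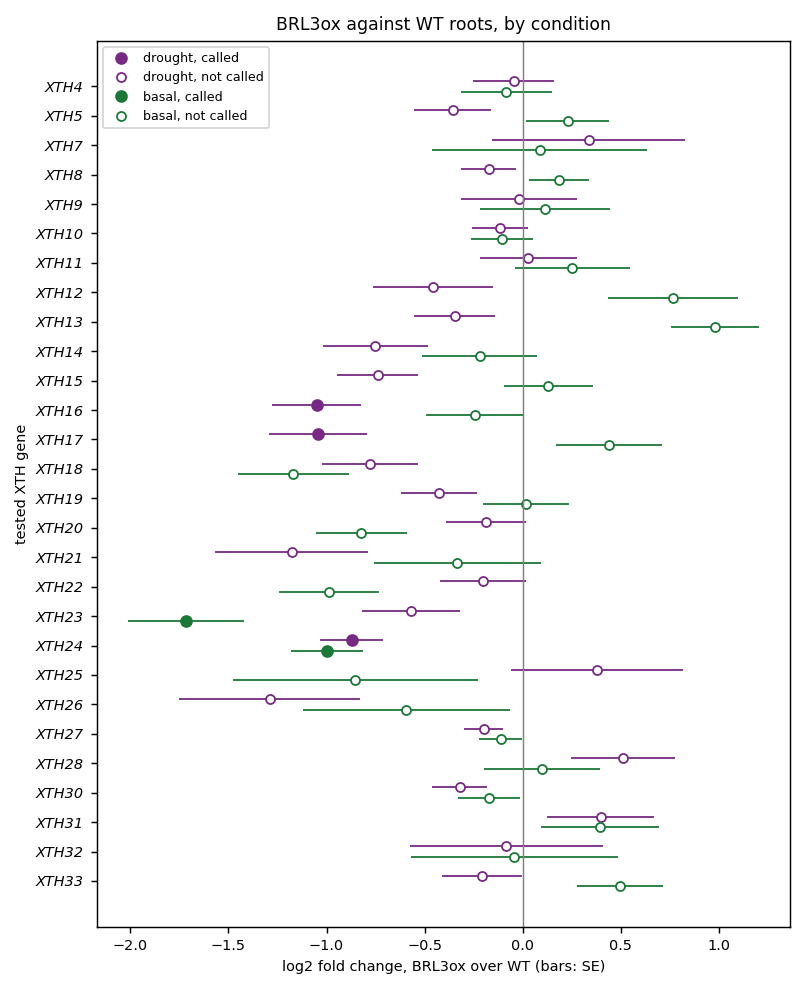
Log2 fold change of the 28 tested XTH genes in *BRL3ox* against WT roots, with SE bars, under drought and in the basal comparison, filled where called. *XTH24* is filled in both (-0.87 in drought and -0.999 in basal), *XTH23* in basal only, *XTH16* and *XTH17* in drought only; the difference between conditions was not called for *XTH16*, *XTH23* or *XTH24*.

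The remaining tested members were called in no comparison. In subgroup I these were *XTH4*, *XTH7*, *XTH8*, *XTH9*, *XTH10* and *XTH11*, and in subgroup II *XTH12*, *XTH14*, *XTH20*, *XTH21* and *XTH26*. In subgroup III they were *XTH27*, *XTH28*, *XTH30*, *XTH31* and *XTH32*, among them *XTH27*, a gene known from leaf vein development. *XTH27* had the smallest SE of the tested members in each comparison, with 40.2 to 46.8 CPM in *BRL3ox* drought, 39.5 and 48.6 CPM in *BRL3ox* control, 46.6 to 52.4 CPM in WT drought and 44.5 to 49.9 CPM in WT control. *XTH7* and *XTH32* were among those that varied most within a group, and they were chosen after their values were seen. *XTH7* had 158, 212 and 126 CPM in *BRL3ox* drought, 168 and 140.3 CPM in *BRL3ox* control, 105, 198 and 89.5 CPM in WT drought and 162, 230.4 and 43.6 CPM in WT control. *XTH32* had 7.93, 9.64 and 5.70 CPM in *BRL3ox* drought, 15.2 and 11.6 CPM in *BRL3ox* control, 6.91, 11.5 and 6.26 CPM in WT drought and 18.2, 19.4 and 3.70 CPM in WT control. Replicate 3 was the lowest sample in each of the 4 groups for both genes, and furthest below the others in WT control. The same held for *XTH4*, *XTH8*, *XTH28* and *XTH33*, so for 6 of the 28 tested members, against 3.3% of all genes tested.

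The genes that build, decorate and trim xyloglucan give the setting in which the XTH enzymes work. The list held 22 genes, all tested, among them *FUT4* and *FUT5*, whose action on xyloglucan is not shown here. Of the 22, 4 were called higher and 0 lower in the drought response of *BRL3ox*, and 6 higher and 0 lower in that of WT. Over all genes these shares were 9.14% higher and 6.98% lower in *BRL3ox*, and 7.54% higher and 4.84% lower in WT. Called in both were *CSLC4*, the main glucan synthase of the xyloglucan backbone, *XXT1*, a xylosyltransferase, and *MUR3*, a galactosyltransferase. Their log2 fold changes were 1.42 (SE 0.28), 0.84 (SE 0.20) and 0.82 (SE 0.14) in *BRL3ox* and 0.83 (SE 0.24), 0.61 (SE 0.18) and 0.91 (SE 0.12) in WT. *XXT5* was also called in *BRL3ox* (0.63), and *CSLC12* (1.27), the fucosyltransferase gene *FUT5* (0.70) and the fucosidase gene *AXY8* (0.63) in WT. The list summed to 2091 to 2187 CPM in *BRL3ox* drought and 1481 and 1500 CPM in *BRL3ox* control, against 2439 to 2919 CPM in WT drought and 1645 to 2141 CPM in WT control. Between genotypes, 2 of the 22 were called lower in *BRL3ox* under drought, *FUT4* at -1.21 (SE 0.29, edgeR adjusted p = 0.0452) and *FUT5* at -0.79 (SE 0.18, edgeR adjusted p = 0.0396), against 2.12% of all genes, and 0 were called in the basal comparison (0.772% of all genes in either direction), where 4 had an unadjusted p under 0.05 and DESeq2 called 1. *FUT4* and *FUT5* are relatives of *FUT1*, the xyloglucan fucosyltransferase, and *FUT4* is itself known to act on arabinogalactan proteins. No other gene of the list was called between genotypes by edgeR. *FUT4* had 22.4, 13.6 and 23.2 CPM in *BRL3ox* drought and 36.9, 39.5 and 61.0 CPM in WT drought, with no overlap. Neither call was kept without WT drought replicate 1 or 3, WT control replicate 1 or any single *BRL3ox* sample. The count of list genes called in the *BRL3ox* response was 1 without *BRL3ox* control replicate 1 and 2 without replicate 3, and that in the WT response was 2 without WT control replicate 2 and 3 without WT control replicate 1 or WT drought replicate 3.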

How the data were processed

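Roots of the 11 samples were sequenced as stranded polyA libraries (TruSeq, single-end 50-bp reads). The authors trimmed 5 bp from the 3′ ends, filtered for quality, mapped to TAIR10 and counted reads by gene. The submitters' processing notes name FastQC, HISAT2 2.1.0 and HTSeq 0.9.1. The strand option and the annotation release are not given in the sources used here. The deposited values are raw counts for 33341 genes, with 5 summary classes of HTSeq that were left out of library sizes and took 10.5 to 12.9% of each sample.

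Groups came from the labels. Counts were filtered with filterByExpr by group (20718 genes kept), scaled by TMM and fitted with edgeR 4.0.16 (glmQLFit and glmQLFTest, robust = FALSE, R 4.3.3, limma 3.58.1) with 1 coefficient for each of the 4 groups, which share 1 dispersion. The residual degrees of freedom were 7 and the biological coefficient of variation 0.159. A call needed an adjusted p (Benjamini-Hochberg, 20718 genes) under 0.05 together with a change of more than 1.5 times, or for the interaction an unadjusted p under 0.0025. The SE is the log2 fold change divided by the square root of F. The test was run on simulated data with this design beforehand, without the fold threshold, and no result is read from that run. Levels of different genes were compared only as CPM per kilobase of exon. Of the identifiers, 33056 occur in the TAIR10.1 RefSeq annotation, which gave positions and sequences, and all 33 member names were found there.

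Members called in at least 1 comparison are given by sample, the others by counts and ranges. The family, the gene lists and the tests were chosen with earlier results of these data known. Alternatives were RLE factors, no scaling, DESeq2 1.42.0, the likelihood ratio test, no filter or at least 10 counts in every sample, robust = TRUE, only the 2 groups compared, fold thresholds of 2 or none, a replicate block, and each sample left out in turn. No 2 samples of a group were copies of each other (chi-square per degree of freedom 8.34 to 42.8).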

Additional observations from a re-analysis of the deposited data

Results flagged for a closer look

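The drought response differed between the genotypes for 2 members, at the unadjusted p under 0.0025 set for the interaction and not after adjustment by edgeR. For *XTH13* the response in *BRL3ox* minus that in WT was -1.33 on the log2 scale (-0.77 in *BRL3ox* and 0.56 in WT). For *XTH17* it was -1.49 (-1.01 in *BRL3ox* and 0.48 in WT). *XTH13* was counted at 1.40 to 3.16 CPM in all 11 samples, so its value rests on few counts compared with *XTH17*, at 16.0 to 58.8 CPM. All groups hold 2 or 3 samples, and single samples were not tested for standing apart.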

How the results depend on the processing

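Of the 22 fold changes called for members, 369 of the 475 values under the alternatives kept the call, 106 lost it and 0 changed sign. These totals include the *BRL3ox* response of *XTH25*, from which no test is read. In the basal comparison, 2 members were called, against 6 by DESeq2, 6 by the likelihood ratio test, 1 at a fold change over 2, 0 with only the 2 groups compared, and 0 to 4 with a sample left out. Under drought, 3 members differed between genotypes, against 6 by DESeq2, 6 by the likelihood ratio test and 0 to 4 with a sample left out. In the *BRL3ox* response the count of 10, which includes *XTH25*, was 4 to 11 with a sample left out. In the WT response the count of 5 was 2 with only the 2 groups compared, 1 at a fold change over 2 and 2 to 6 with a sample left out. The interaction count of 2 was 0 to 3 with a sample left out. The cause of these changes was not tested, and the fits that leave samples out or use 2 groups hold fewer samples. The share of all genes called under each alternative is not given in this paragraph. The counts are therefore not read as results about the family. Same-numbered samples of different groups had correlations of deviations from -0.0881 to 0.412 (mean 0.15), over 0.1 in 11 of 15 pairs. As not every pair was over 0.1 and no source ties a number to a shared harvest, the samples were not treated as paired, although 10 of 11 samples had their highest mean correlation with their own number in the other groups. With the replicate number as a block, the counts were 3 in the basal comparison, 4 under drought, 13 in the *BRL3ox* response, 6 in the WT response and 1 (*XTH17*) for the interaction, where *XTH13* was at -1.31 with an unadjusted p of 0.00251 by edgeR. Depth limits *XTH25*, with 86 counts in all, which was not called with DESeq2, with no scaling or with no filter, and the 5 members that were not tested.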
